A study of Rattus norvegicus with 145 samples.

Results

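Female Wistar rats that received the highest dose of acetamide for 7 days, 1500 mg/kg/day (mkd), were compared on day 8 with the vehicle control females of the same data set. Members were all rats whose label gave female sex, 7 days of treatment and a dose of 1500 or 0 mkd, which made 5 treated and 5 control rats, 10 of the 145 rats of the series. All 10 were Crl:WI rats aged 8 to 10 weeks, and each received water by daily gavage, with acetamide dissolved in it at 1500 mkd or without it. The liver (left lobe) was taken 24 h after the last dose, following an overnight fast, and each rat gave 1 RNA-Seq library. The same data set holds 20 further females at 300, 500, 750 and 1000 mkd (5 per dose). Females killed on day 29 after 28 days of gavage and males killed on day 8 received the same doses. The study asked at which dose and through which genes acetamide, a contaminant of food that causes liver tumors in rats, alters the liver.

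The adult liver divides little, and its hepatocytes enter the cell cycle again after loss of tissue, toxic injury or a mitogen. Genes of the spindle, of the kinetochore and of cytokinesis are transcribed late in the cell cycle, from promoters that carry CCAAT boxes and a short element called the cell cycle genes homology region. Interferons act through STAT and IRF factors on another element, the interferon-stimulated response element, and switch on antiviral genes. Hepatocytes also make most plasma proteins, among them clotting factors, complement and the acute-phase proteins.

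Promoter sequences are shown for called genes of mitosis and of the interferon response, and for Lgals3bp, whose values followed the interferon genes, because they hold these short elements. They are RefSeq sequences of build GRCr8, where 27457 genes have an entry, and were searched over the 250 bases before the start on both strands. The motifs were CCAAT for the box of that name, TTTGAA for the common form of the cell cycle element, TTTAAA for a variant of it that is also frequent, and, for the interferon element, the 4 letters TTTC on either side of any 2 bases. TTTAAA reads the same on both strands, and a CCAAT can overlap a TTTGAA by a base, as it does once in Mki67. Capitals mark the matches on either strand, and the last base printed is the one before the start.
Ccnb1 (chr2:33655226-33655355, minus strand): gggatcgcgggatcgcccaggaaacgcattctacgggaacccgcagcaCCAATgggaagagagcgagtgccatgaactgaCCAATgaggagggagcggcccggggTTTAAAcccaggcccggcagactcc
Kif11 (chr1:244536737-244536866, plus strand): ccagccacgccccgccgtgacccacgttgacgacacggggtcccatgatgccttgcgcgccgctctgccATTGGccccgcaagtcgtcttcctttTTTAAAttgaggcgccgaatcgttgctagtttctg
Mki67 (chr1:199952594-199952793, minus strand): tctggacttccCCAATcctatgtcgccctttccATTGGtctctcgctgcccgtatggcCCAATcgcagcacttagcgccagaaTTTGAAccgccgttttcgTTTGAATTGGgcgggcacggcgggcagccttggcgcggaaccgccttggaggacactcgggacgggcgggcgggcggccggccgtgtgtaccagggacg
Ckap2 (chr16:76541974-76542113, plus strand): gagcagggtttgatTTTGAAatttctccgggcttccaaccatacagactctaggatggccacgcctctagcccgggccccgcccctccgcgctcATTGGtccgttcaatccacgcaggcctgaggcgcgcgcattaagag
Rsad2 (chr6:48788121-48788280, minus strand): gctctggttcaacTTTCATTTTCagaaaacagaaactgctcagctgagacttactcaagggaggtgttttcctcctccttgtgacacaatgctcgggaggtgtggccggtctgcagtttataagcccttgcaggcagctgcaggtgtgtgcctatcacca
Gbp4 (chr2:233978386-233978485, plus strand): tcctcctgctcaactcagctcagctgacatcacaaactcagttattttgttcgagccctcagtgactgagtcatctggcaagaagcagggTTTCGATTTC
Lgals3bp (chr10:104127849-104127948, minus strand): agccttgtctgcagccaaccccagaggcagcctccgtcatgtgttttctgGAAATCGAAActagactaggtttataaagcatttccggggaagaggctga

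Of the 72 mitosis genes tested in these rats, 61 had a promoter entry, and 44 of them (72.1%) held a CCAAT, against 35.7% of the 8743 tested genes with an entry. TTTGAA stood in 30 (49.2%) of the mitosis promoters, against 10.3%, and TTTAAA in 14 (23%), against 8.01%. The interferon element was found in 22 of 34 promoters of the interferon list (64.7%), against 2.7% of the tested genes. Promoters of the DNA replication list held CCAAT in 24 of 39 (61.5%) and TTTGAA in 4 (10.3%). Of the 60 genes called higher, 49 had an entry. CCAAT stood in 19 of them (38.8%) and TTTGAA in 5 (10.2%), close to the shares of all tested genes. TTTAAA stood in 5 (10.2%) and the interferon element in 3 (6.12%). These matches describe the letters of a window and are no evidence of binding.

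Reads on genes numbered 22945748 to 32460604 in the vehicle rats and 17539144 to 30749797 in the treated rats. TMM scaling factors lay between 0.797 and 0.969 and between 0.944 and 1.16. Levels below are in CPM (counts scaled to library size with these factors), and log2 fold changes, standard errors (SE) and Benjamini-Hochberg adjusted p are from the quasi-likelihood test of edgeR. The 10 hepatocyte markers, albumin among them, summed to between 210762 and 297192 CPM in the vehicle rats and between 189886 and 247017 CPM in the treated rats. The 5 treated rats did not respond alike. Treated rats 1 and 5 had the lowest values of their group in most genes called higher, and treated rats 2, 3 and 4 the highest. Results below are given rat by rat for that reason.

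Of 17337 genes counted, 11497 had enough reads to be tested, and 81 met the criteria of a |fold change| of at least 1.5 and an adjusted p of at most 0.05. Of these, 60 were higher in the treated rats (0.522% of the genes tested) and 21 were lower (0.183%). The genes that rose were mostly rare transcripts with large changes. Their median control level was 2.05 CPM, 21 of them lay under 1 CPM in the vehicle rats, and their median log2 fold change was 1.96, with 29 genes above a 4-fold rise. Genes that fell were abundant and changed less, with a median control level of 142 CPM and a median log2 fold change of -0.82. The median over all genes tested was -0.00.

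All 5 treated rats lay above all 5 vehicle rats in 31 of the 60 genes that rose, which was so for 1.65% of the genes tested, and below them in 15 of the 21 that fell (1.06% of the genes tested). The overlap came from a pair of treated rats. Treated rat 1 was the lowest of its group in 30 of the 60 and reached no further than the highest vehicle rat in 19, and treated rat 5 was the lowest in 27 and overlapped in 20. Treated rats 2, 3 and 4 overlapped with the vehicle rats in 0 of the 60. Among the 21 genes that fell, treated rat 1 had the highest value of its group in 17.

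The number of calls rested on single rats. It was 426 without treated rat 1 and 330 without treated rat 5, and between 1 and 8 when any of the other 8 rats was left out (1 without vehicle rat 1 or 2 or treated rat 2 or 3, 3 without vehicle rat 4 or 5, 4 without treated rat 4 and 8 without vehicle rat 3). Of the 81 genes, 77 had an adjusted p between 0.0354 and 0.0487, and another 315 genes lay between 0.05 and 0.1. An unadjusted p under 0.05 was reached by 1002 genes that were higher (8.72%) and 686 that were lower (5.97%). DESeq2 on the same counts called 257 genes higher (2.24%) and 81 lower (0.705%), with all 81 genes of edgeR among them. Of the 51 called genes named below, all but Abcb1b lost the call under at least 1 of the alternative settings tried, and none changed its direction.

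**Figure D1:**
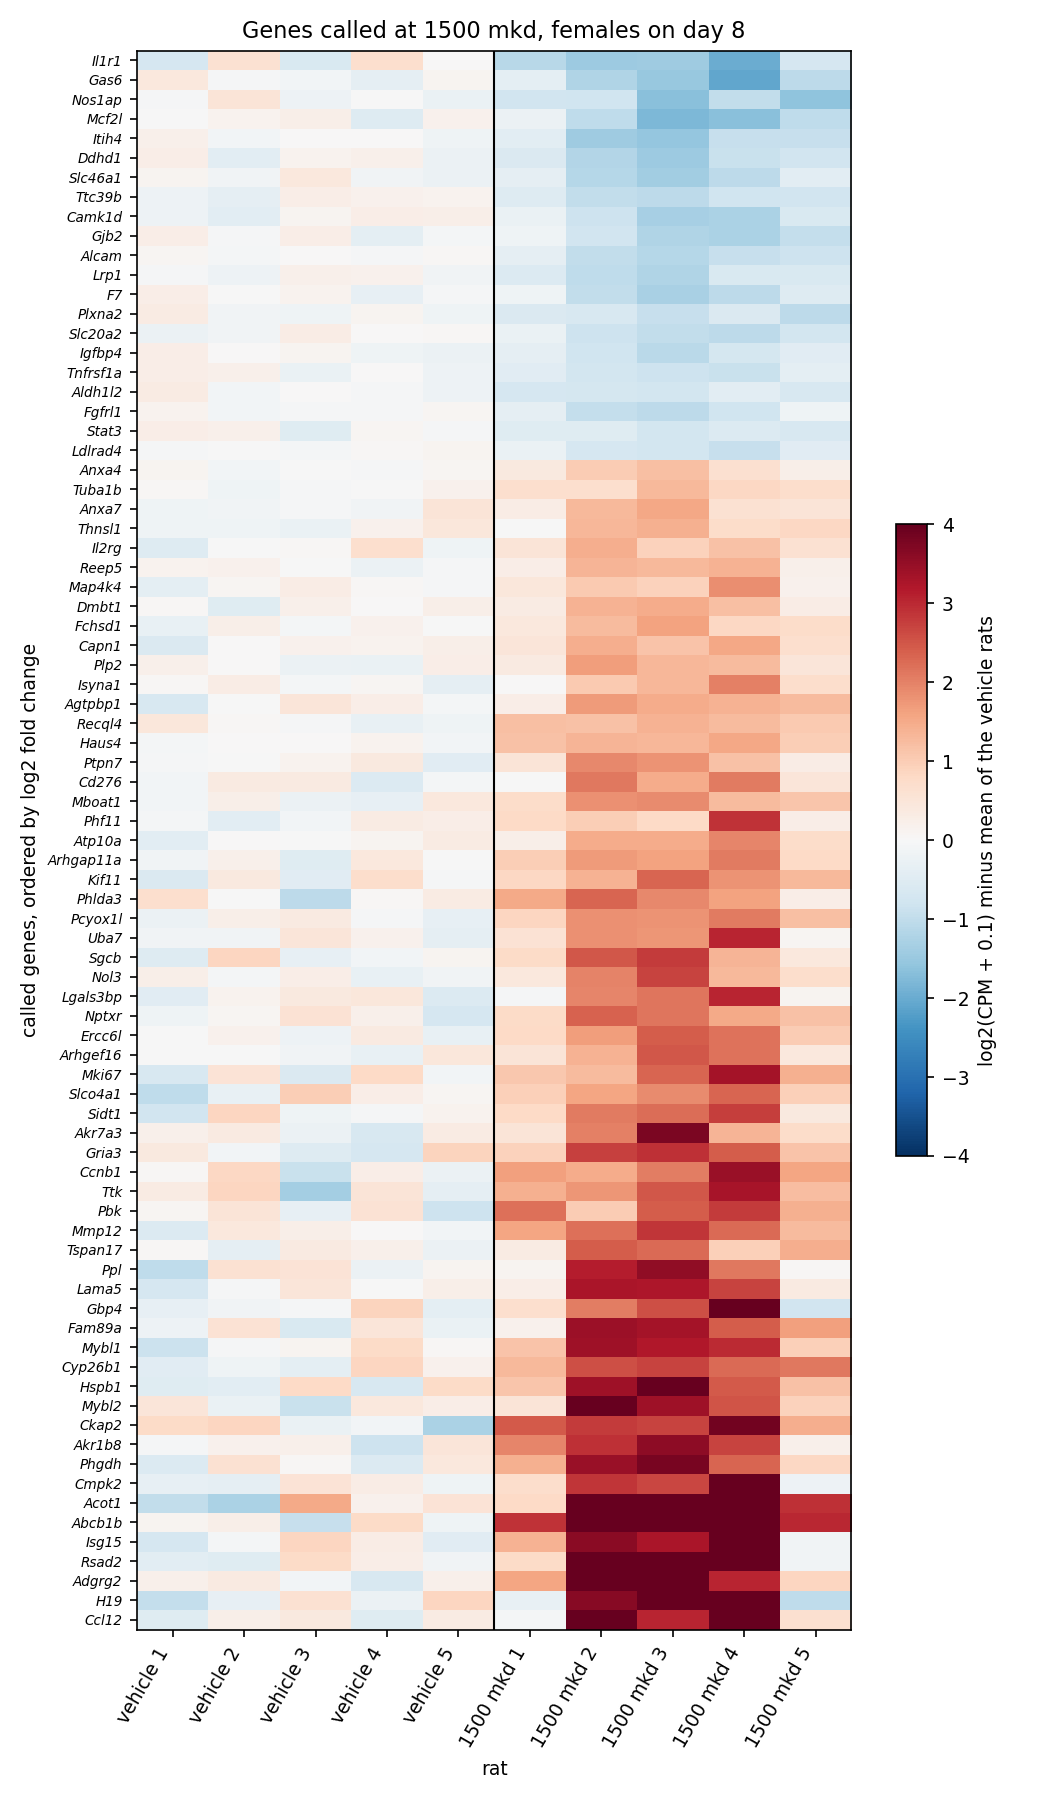
Heat map of the 81 genes called at 1500 mkd, 1 line per gene and 1 column per rat (5 vehicle rats left, 5 treated rats right). Colour is log2(CPM + 0.1) minus the mean of the vehicle rats, and colours end at 4 either way; treated rats 2, 3 and 4 show stronger colours than treated rats 1 and 5 in most genes that rose.

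Mitosis was the group with most calls. Of 72 mitosis genes tested, 8 rose and 0 fell by edgeR, and 47 rose by DESeq2. The log2 fold change was above 0 in 70 of the 72, with a median of 1.65 and a range of -0.14 to 2.90, and all 5 treated rats lay above all 5 vehicle rats in 40 of the 72. As a mean over the list, the level was between -0.12 and 0.72 log2 CPM in the vehicle rats and 1.28, 1.31, 1.97, 2.42 and 1.11 log2 CPM in treated rats 1 to 5, so that the groups did not overlap. Treated rat 4 was the highest of its group in 50 of the 72 genes. Treated rat 5 was the lowest in 33, treated rat 2 in 22 and treated rat 1 in 15. In this list treated rat 2 thus lay with treated rats 1 and 5, unlike in most genes called higher. From RNA of bulk liver alone, more cells in mitosis and more of these transcripts per cell cannot be told apart. The study counted more Ki67-labelled hepatocytes in females at this dose and day, and those counts were not compared with the RNA here.

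Ccnb1, the cyclin B1 that drives entry into mitosis, was at 1.16, 2.05, 0.552, 1.35 and 0.932 CPM in vehicle rats 1 to 5 and at 3.72, 3.28, 4.87, 13.2 and 3.56 CPM in treated rats 1 to 5. Its log2 fold change was 2.22 ± 0.55 (SE, adjusted p = 0.0470). Every treated rat was above every vehicle rat, with treated rat 4 far above the other four. Mki67, which encodes the proliferation antigen Ki-67, was at 3.40, 7.90, 3.57, 9.34 and 5.01 CPM in the vehicle rats and 11.5, 13.2, 27.2, 54.5 and 14.5 CPM in the treated rats. That rise of 2.05 ± 0.49 on the log2 scale (adjusted p = 0.0422) again separated the groups, with the order of the treated rats close to that of Ccnb1. Kif11, the kinesin that pushes the spindle poles apart, went from 1.35, 2.79, 1.49, 3.42 and 2.02 CPM to 3.79, 5.59, 11.0, 7.48 and 5.28 CPM (log2 fold change 1.58 ± 0.37, adjusted p = 0.0398). Here treated rat 3 was the highest, and the 2 groups came closest between vehicle rat 4 and treated rat 1.

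Another 5 mitosis genes passed. Mybl2, the B-Myb factor that activates G2 and mitosis genes, was at 0.382 to 1.16 CPM in the vehicle rats and at 1.18, 14.3, 9.38, 5.02 and 1.6 CPM in treated rats 1 to 5 (log2 fold change 2.89 ± 0.66, adjusted p = 0.0380). Treated rat 1 was level with the highest vehicle rats, and treated rat 2 had the highest value. Ckap2, a spindle protein, rose by 2.90 on the log2 scale, Pbk, a mitotic kinase, by 2.31, Ttk, the kinase of the spindle checkpoint, by 2.25, and Ercc6l, a helicase that resolves threads between chromosomes, by 1.96. In all of these 4 the treated rats lay above every vehicle rat. Cenpw, a centromere protein that did not pass (adjusted p = 0.149), had a log2 fold change of 1.93 at levels that lay between 0.0387 and 0.353 CPM in the vehicle rats and between 0.237 and 1.02 CPM in the treated rats.

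DNA replication showed the same direction at smaller size, and no member passed by edgeR. Of 49 genes tested, 0 were called, 10 rose by DESeq2, and 29 were higher and 1 lower at an unadjusted p under 0.05. The median log2 fold change was 0.69, and 46 of the 49 were above 0. The list level was 1.2 to 1.64 log2 CPM in the vehicle rats and 1.78 to 2.47 in the treated rats, without overlap, although all 5 treated rats lay above all 5 vehicle rats in only 12 single genes. Clspn, which links stalled forks to the checkpoint, had a log2 fold change of 2.84 and an adjusted p just above the threshold, with 0 to 0.0963 CPM in the vehicle rats and 0.237 to 0.761 CPM in the treated rats. Gins1, part of the replicative helicase, had 1.57 (adjusted p = 0.0554) with 0.387 to 0.626 CPM in the vehicle rats and 0.820 to 2.64 CPM in the treated rats.

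The p53 targets moved less than the mitosis genes. Of 20 tested, 1 rose by edgeR and 2 by DESeq2, with a list median of 0.52. At an unadjusted p under 0.05, 9 were higher, which was so for 8.72% of all genes tested. The gene that rose was Phlda3, a p53-induced inhibitor of AKT, at 4.93 to 16.2 CPM in the vehicle rats and 29.5, 51.1, 39.3, 31.5 and 12.2 CPM in treated rats 1 to 5 (log2 fold change 1.58 ± 0.37, adjusted p = 0.0398). Treated rat 5 lay inside the vehicle range. Mdm2, the ubiquitin ligase of p53 and itself a p53 target, had a log2 fold change of 0.93 (adjusted p = 0.0831), again with treated rat 5 among the vehicle rats. Cdkn1a, named after its values were seen, had a log2 fold change of 1.41 by edgeR (unadjusted p = 0.0337, adjusted p = 0.293). The list of cyclins and growth entry genes had 0 of 21 called, with 5 higher at an unadjusted p under 0.05, 2 called higher by DESeq2 and a median of 0.22. Among further cell cycle genes, Cdkn3 had a log2 fold change of 1.82 (adjusted p = 0.116), Cdkn2c, the inhibitor p18, of 0.99 (adjusted p = 0.0918), and Parpbp, a regulator of homologous recombination, of 1.5 (adjusted p = 0.0831).

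**Figure D2:**
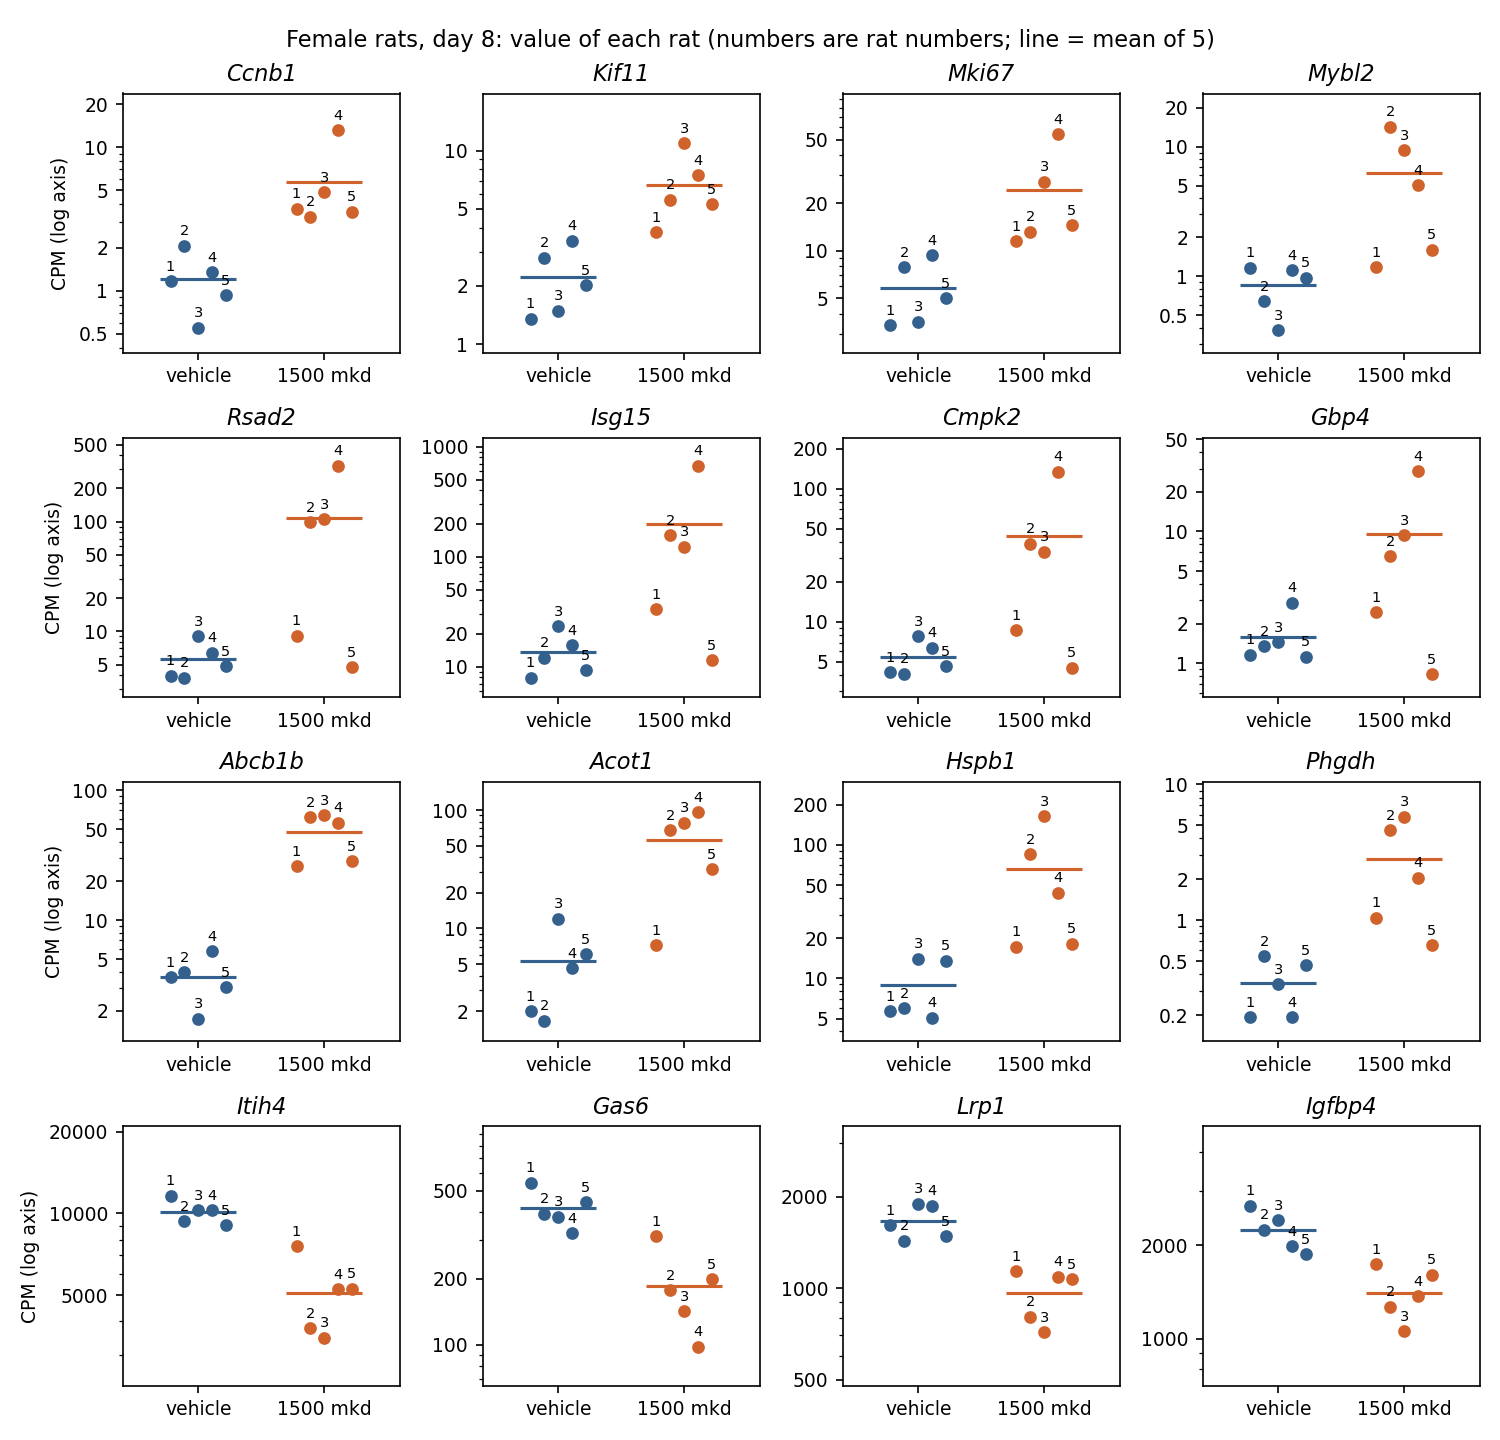
Level of 16 genes in each rat, in CPM on a log axis, for the 5 vehicle rats (blue) and the 5 treated rats (orange), with the rat number at each point and a line at the mean of each group. In the 4 mitosis genes of the top line the groups do not overlap, while in the 4 interferon genes of the next line treated rat 5 lies among the vehicle rats.

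Interferon-stimulated genes rose in some treated rats and not in others. Of 47 tested, 4 rose by edgeR, 16 by DESeq2, and 34 were higher at an unadjusted p under 0.05. Their median log2 fold change was 0.93, and 43 were above 0. In 0 of the 47 did all 5 treated rats lie above all 5 vehicle rats. The list level was 4.57, 5.62, 5.60, 6.81 and 4.13 log2 CPM in treated rats 1 to 5, against 4.06 to 4.95 in the vehicle rats, and treated rat 4 was the highest of its group in 42 genes and treated rat 5 the lowest in 39.

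Rsad2, the antiviral radical SAM enzyme viperin, was at 3.94, 3.79, 9.01, 6.4 and 4.81 CPM in vehicle rats 1 to 5 and at 9.14, 99.1, 105, 321 and 4.75 CPM in treated rats 1 to 5. The log2 fold change of 4.28 ± 0.86 (adjusted p = 0.0354) came from treated rats 2, 3 and 4, whereas treated rats 1 and 5 were at or near the vehicle level. Isg15, a ubiquitin-like protein that is joined to others in the antiviral response, was also highest in treated rat 4 and lowest in treated rat 5, with 7.93 to 23.2 CPM in the vehicle rats and 33.4, 157, 123, 669 and 11.5 CPM in the treated rats (log2 fold change 3.86 ± 0.81, adjusted p = 0.0354). Cmpk2, a mitochondrial nucleotide kinase, rose by 3.03 on the log2 scale and Gbp4, a guanylate-binding protein, by 2.59, both with treated rat 4 highest and treated rat 5 within or below the vehicle range.

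Some called genes outside the list followed the same rats, and they are named here after their values were seen. Uba7, the enzyme that activates Isg15, was at 12.0 to 21.7 CPM in the vehicle rats and 23.1, 54.9, 52.7, 128 and 16.3 CPM in the treated rats (log2 fold change 1.8, adjusted p = 0.0380). Lgals3bp, a secreted galectin-binding glycoprotein, was at 37.1 to 75.5 CPM and 53.0, 215, 241, 457 and 59.8 CPM (1.84, adjusted p = 0.0437), and Phf11 at 15.2 to 25.3 CPM and 34.9, 39.8, 35.3, 152 and 24.4 CPM (1.48, adjusted p = 0.0477). In each of them treated rat 4 was the highest and treated rat 5 inside the vehicle range. Ccl12, a chemokine for monocytes and the only one of 35 chemokine and inflammation genes to pass, had 0, 2, 2, 0 and 2 reads in the vehicle rats and 1, 130, 21, 67 and 2 reads in the treated rats (adjusted p = 0.0380). Markers of immune cells did not separate the groups. The summed level of 12 macrophage markers was 1182 to 2074 CPM in the vehicle rats and 1102 to 2328 CPM in the treated rats, that of 11 T and NK cell markers 39.2 to 72.1 and 36.5 to 74.8 CPM, and their part in the interferon values was not tested.

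Among single genes that rose, Abcb1b, an efflux pump of the multidrug resistance family, had the lowest adjusted p of all genes (0.000843). It was at 3.63, 3.98, 1.74, 5.78 and 3.03 CPM in the vehicle rats and 25.9, 62.0, 64.5, 56.5 and 28.4 CPM in the treated rats, a 13.1-fold rise (log2 fold change 3.71 ± 0.52). Treated rats 1 and 5 were the lowest here too, but both were more than any vehicle rat by a wide margin, and the call held whichever of the 10 rats was left out. The 26 other ABC transporters tested were not called by edgeR, DESeq2 called 2 higher and 1 lower of all 27, Abcb1b included, and their median was -0.10. Reads that Abcb1b shares with its close relatives may have been split between them.

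Hspb1, the small heat shock protein HSP27, was at 5.68, 6.00, 14.0, 5.06 and 13.5 CPM in the vehicle rats and 17.2, 85.1, 164, 43.9 and 18.2 CPM in the treated rats (log2 fold change 2.89 ± 0.51, adjusted p = 0.0200). Every treated rat was above every vehicle rat, but treated rats 1 and 5 only just. It was the only one of 34 heat shock and ER stress genes to pass by edgeR or by DESeq2, and the list median was -0.10. Of 38 NRF2 targets tested, 2 rose by edgeR, both aldo-keto reductases that detoxify aldehydes, DESeq2 called 5 higher and 1 lower, and 10 were higher and 3 lower at an unadjusted p under 0.05. Akr7a3 was at 14.8 to 29.5 CPM in the vehicle rats and 32.9, 94.9, 318, 60.1 and 38.6 CPM in the treated rats (2.18, adjusted p = 0.0435), and Akr1b8 at 0.0963 to 0.388 CPM and 1.24, 2.54, 4.06, 2.15 and 0.297 CPM (2.94, adjusted p = 0.0437). The list median was -0.07, and of 25 xenobiotic response genes 0 were called by edgeR and 4 by DESeq2, with 4 higher at an unadjusted p under 0.05 and a median of 0.10. Ugt1a6, a glucuronosyltransferase, had a log2 fold change of 1.24 (adjusted p = 0.0742) and Abcc3, which exports glucuronides, of 1.69 (adjusted p = 0.0561), each with treated rats 2, 3 and 4 highest.

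Genes that mark altered foci and fetal or progenitor states of rat liver included both of these reductases and Abcb1b, so that 4 of the 21 tested rose, 6 by DESeq2, with a list median of 0.49. The remaining one was H19, an imprinted long non-coding RNA of fetal liver, with 0.193, 0.353, 0.765, 0.385 and 0.932 CPM in the vehicle rats and 0.359, 6.92, 30.3, 32.0 and 0.178 CPM in the treated rats (log2 fold change 4.72 ± 1.07, adjusted p = 0.0380). It was high in treated rats 2, 3 and 4 alone, and treated rat 5 was below every vehicle rat. Adgrg2, an adhesion G protein-coupled receptor, was nearly silent in the vehicle rats, with 2, 3, 1, 0 and 2 reads, and had 11, 91, 57, 23 and 3 reads in treated rats 1 to 5 (adjusted p = 0.0354). Treated rat 5 lay at the vehicle level in reads.

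Acot1, a cytosolic acyl-CoA thioesterase and target of PPARα, was at 2.01, 1.67, 12.1, 4.62 and 6.09 CPM in the vehicle rats and 7.25, 67.2, 78.1, 95.8 and 31.7 CPM in the treated rats (log2 fold change 3.41 ± 0.72, adjusted p = 0.0354). Treated rat 1 was within the vehicle range and the other four were above it. The other 38 PPARα targets tested did not pass by edgeR, DESeq2 called 2 of all 39 higher, and the list median was 0.04. Of 24 acyl-CoA thioesterases and synthetases, Acot1 was the only one called by edgeR, and DESeq2 called 2 higher (median 0.06). Acot1 has near copies in the genome, and reads may have been shared among them. Aqp7, the glycerol channel, had a log2 fold change of 1.94 but an adjusted p of 0.0857 by edgeR, and it was the other gene that DESeq2 called.

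In the serine and one-carbon list, 1 of 13 genes rose and 1 fell. Phgdh, the first enzyme of serine synthesis, is scarcely expressed in liver and was at 0.193 to 0.546 CPM in the vehicle rats and 1.04, 4.59, 5.78, 2.05 and 0.653 CPM in the treated rats (log2 fold change 2.98 ± 0.72, adjusted p = 0.0435). Aldh1l2, the mitochondrial enzyme that oxidizes formyl-tetrahydrofolate, was at 361, 270, 293, 280 and 250 CPM and fell to 182, 177, 172, 214 and 184 CPM (-0.65 ± 0.14, adjusted p = 0.0354). Both genes separated the groups without overlap, and for Aldh1l2 the treated rats were closer to each other than the vehicle rats were. Of 25 genes of the ATF4 response to amino acid shortage 0 passed, 5 were higher and 1 lower at an unadjusted p under 0.05, and DESeq2 called 1 each way (median 0.18). The one it called lower, Gpt2, an alanine aminotransferase, had a log2 fold change of -0.97 (adjusted p = 0.0831 by edgeR). Of 22 amino acid transporters 0 passed, 3 were higher and 6 lower at that p, and DESeq2 called 1 higher (median -0.24). Slc3a2, the heavy chain of several such transporters, had a log2 fold change of 0.86 (adjusted p = 0.0554), with treated rats 2 and 3 at 253 and 320 CPM and the other three at 109 to 138 CPM, against 94.1 to 111 CPM in the vehicle rats.

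Several further genes rose in every treated rat. Mybl1, the A-Myb relative of Mybl2, rose by 2.62 on the log2 scale (adjusted p = 0.0354), Mmp12, the elastase of macrophages, by 2.34 (adjusted p = 0.0200), Gria3, a glutamate receptor subunit, by 2.18 (adjusted p = 0.0366), Nol3, an inhibitor of apoptosis, by 1.84 (adjusted p = 0.0380) and Pcyox1l by 1.73 (adjusted p = 0.0380). Mmp12 was at 0.232 to 0.546 CPM in the vehicle rats and 1.34, 2.13, 3.45, 2.20 and 1.07 CPM in the treated rats, so that treated rats 1 and 5 also stood clear of the vehicle rats. Named after its values were seen, Cyp26b1, which breaks down retinoic acid, was at 0.116 to 0.433 CPM and 0.620, 1.66, 1.83, 1.33 and 1.19 CPM (2.64 ± 0.48, adjusted p = 0.0200). Lama5, a basement membrane laminin chain named likewise, was at 3.09 to 7.05 CPM and 6.01, 48.6, 48.0, 32.9 and 6.47 CPM (2.47, adjusted p = 0.0373), with treated rats 1 and 5 inside the vehicle range.

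Genes that fell included abundant plasma proteins and cell surface receptors. Itih4, a heavy chain of the inter-alpha-trypsin inhibitor secreted by liver, was at 11623, 9332, 10245, 10263 and 9022 CPM in the vehicle rats and 7579, 3783, 3479, 5257 and 5275 CPM in the treated rats (log2 fold change -0.99 ± 0.22, adjusted p = 0.0380). Gas6, a vitamin K-dependent ligand of the TAM receptors, was at 544, 394, 381, 321 and 443 CPM and fell to 312, 177, 142, 98.1 and 198 CPM (-1.17 ± 0.25, adjusted p = 0.0366). Both showed 2 separate groups in which treated rat 1 lay nearest the vehicle rats. F7, coagulation factor VII, fell by 0.76 on the log2 scale (adjusted p = 0.0487) and Igfbp4, a binding protein of insulin-like growth factors, by 0.67 (adjusted p = 0.0380).

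Lrp1, the large endocytic receptor of hepatocytes, was at 1611, 1432, 1894, 1871 and 1484 CPM in the vehicle rats and 1136, 807, 718, 1091 and 1070 CPM in the treated rats (log2 fold change -0.78 ± 0.18, adjusted p = 0.0398), without overlap. Alcam, a cell adhesion molecule, fell by 0.82, Plxna2, a semaphorin receptor, by 0.75, Tnfrsf1a, a receptor of TNF, by 0.65 and Fgfrl1, a decoy receptor of fibroblast growth factors, by 0.64 on the log2 scale. The carriers Slc46a1, which imports folate, and Slc20a2, which imports phosphate, fell by 0.84 and 0.75. In all of these every treated rat was below every vehicle rat, although vehicle rat 1 (104 CPM) and treated rat 1 (103 CPM) were almost level for Slc20a2. Nos1ap, an adaptor of neuronal nitric oxide synthase, fell by 1.16, Ddhd1, a phospholipase, by 0.97, Ttc39b by 0.84 and Ldlrad4, an inhibitor of TGF-beta signalling, by 0.60, each without overlap.

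Stat3, the main factor of the acute-phase response, was at 191 to 320 CPM in the vehicle rats and 161 to 193 CPM in the treated rats (-0.60 ± 0.13, adjusted p = 0.0380), and treated rat 1 was just above the lowest vehicle rat. Of the 21 genes that fell, Il1r1, the interleukin-1 receptor, had the largest change (-1.38 ± 0.29, adjusted p = 0.0354) at 81.8, 199, 85.1, 209 and 133 CPM in the vehicle rats and 60.1, 47.5, 48.4, 33.3 and 81.9 CPM in the treated rats, and it was named after its values were seen, as was Gjb2, the gap junction protein connexin 26, which fell by 0.83.

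The complement and coagulation list and the acute-phase list had small median falls. Some members were above 0 (8 of the 47 complement and coagulation genes and 6 of the 32 acute-phase genes). The acute-phase list is mixed, as it holds Stat3, which is no plasma protein, and also Alb, Ttr and Tf. Of 47 complement and coagulation genes 2 fell (Gas6 and F7), 4 by DESeq2, and 20 were lower and 0 higher at an unadjusted p under 0.05, with a median log2 fold change of -0.33. Of 32 acute-phase genes 2 fell (Itih4 and Stat3), 3 by DESeq2, with 10 lower and 0 higher at that p and a median of -0.34. The list level was 8.17 to 8.41 log2 CPM in the vehicle rats and 7.90 to 8.10 in the treated rats for complement and coagulation, and 10.79 to 11.17 and 10.54 to 10.75 for the acute-phase proteins. Neither list overlapped between the groups, at differences well under those of the mitosis list. In the growth hormone and IGF list 1 of 20 fell (Igfbp4), 6 were lower at an unadjusted p under 0.05, and the median was -0.44, the list level being 6.42 to 6.83 log2 CPM in the vehicle rats and 5.7 to 6.33 in the treated rats. Ghr, the growth hormone receptor, was at 552 to 849 CPM in the vehicle rats and 302 to 559 CPM in the treated rats but did not pass (log2 fold change -0.74, adjusted p = 0.113).

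Lists of amino acid breakdown and of lipid synthesis had 0 called genes by edgeR and medians below 0. Of 51 genes of the urea cycle and amino acid catabolism 0 were called, 5 fell and 1 rose by DESeq2, and 21 were lower and 2 higher at an unadjusted p under 0.05 (median -0.33). Hal, which starts histidine breakdown, had a log2 fold change of -1.02 (adjusted p = 0.0747), Oat, the ornithine aminotransferase, of -1.2 (adjusted p = 0.0831) and Ass1 of the urea cycle of -0.64 (adjusted p = 0.0722). Cholesterol synthesis had 0 of 25 called, 1 lower by DESeq2, 5 lower at an unadjusted p under 0.05 and a median of -0.39, with 1 gene above 0. Fatty acid and lipid synthesis had 0 of 26 called, 1 lower by DESeq2, 3 lower and 1 higher at that p and the same median. In those 2 lists the level in the treated rats (5.26 to 6.59 and 5.54 to 6.56 log2 CPM) overlapped with that in the vehicle rats (5.45 to 6.69 and 6.01 to 7.19). Thrsp, a regulator of lipid synthesis, was at 666 to 1696 CPM in the vehicle rats and 995, 155, 134, 103 and 485 CPM in the treated rats, but its adjusted p was 0.243.

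Other lists held few called genes. Clock genes (16 tested, median -0.21), immediate early genes (23, median 0.10) and glucose metabolism (33, median -0.15) had 0 called by edgeR, 0 by DESeq2 and 0 at an unadjusted p under 0.05. Bile acid genes (24, median -0.10), steroid metabolism (16, median -0.18) and pericentral genes (16, median -0.02) had 0 called by edgeR, 1, 1 and 2 by DESeq2 and 2, 3 and 2 at that p. Periportal genes (17, median -0.39) had 15 members below 0. Of the 17, 0 were called by edgeR, 3 were lower by DESeq2 (0.705% of all genes tested) and 5 lower at that p (5.97%). Genes that are higher in female liver (17, median -0.31) had 1 called, Abcb1b, and those higher in male liver (12, median -0.13) had 0, with 1 by DESeq2 and 4 at that p. From a published set of markers of cytotoxic carcinogens, the study named some as altered in at least a part of its groups, in both directions. Not all of them were named for the females examined here, and it found no significant enrichment of the set. Of the 5 genes in that list, 1 rose here by edgeR, Akr1b8, and DESeq2 called 2 higher. The log2 fold changes ran from -1.36 to 2.94, with 4 above 0 and 1 below. The list median of 0.73 is not independent evidence of a direction. Of the 32 lists of pathways, 16 had 0 called by edgeR.

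Markers of cell types did not pass either. Over 11 lists, 0 of 79 markers tested were called by edgeR or DESeq2, 6 had an unadjusted p under 0.05, and the list medians ran from -0.39 to 0.61. Cholangiocyte markers had a median of 0.55 and a summed level of 10.6 to 17.2 CPM in the vehicle rats and 11.0 to 26.8 CPM in the treated rats, endothelial markers 194 to 252 and 186 to 332 CPM, and stellate cell and fibroblast markers 446 to 801 and 486 to 651 CPM. Neutrophil markers summed to 1.57 to 5.26 and 2.43 to 2.97 CPM. Every one of these ranges overlapped between the groups, as did that of the hepatocyte markers.

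**Figure D3:**
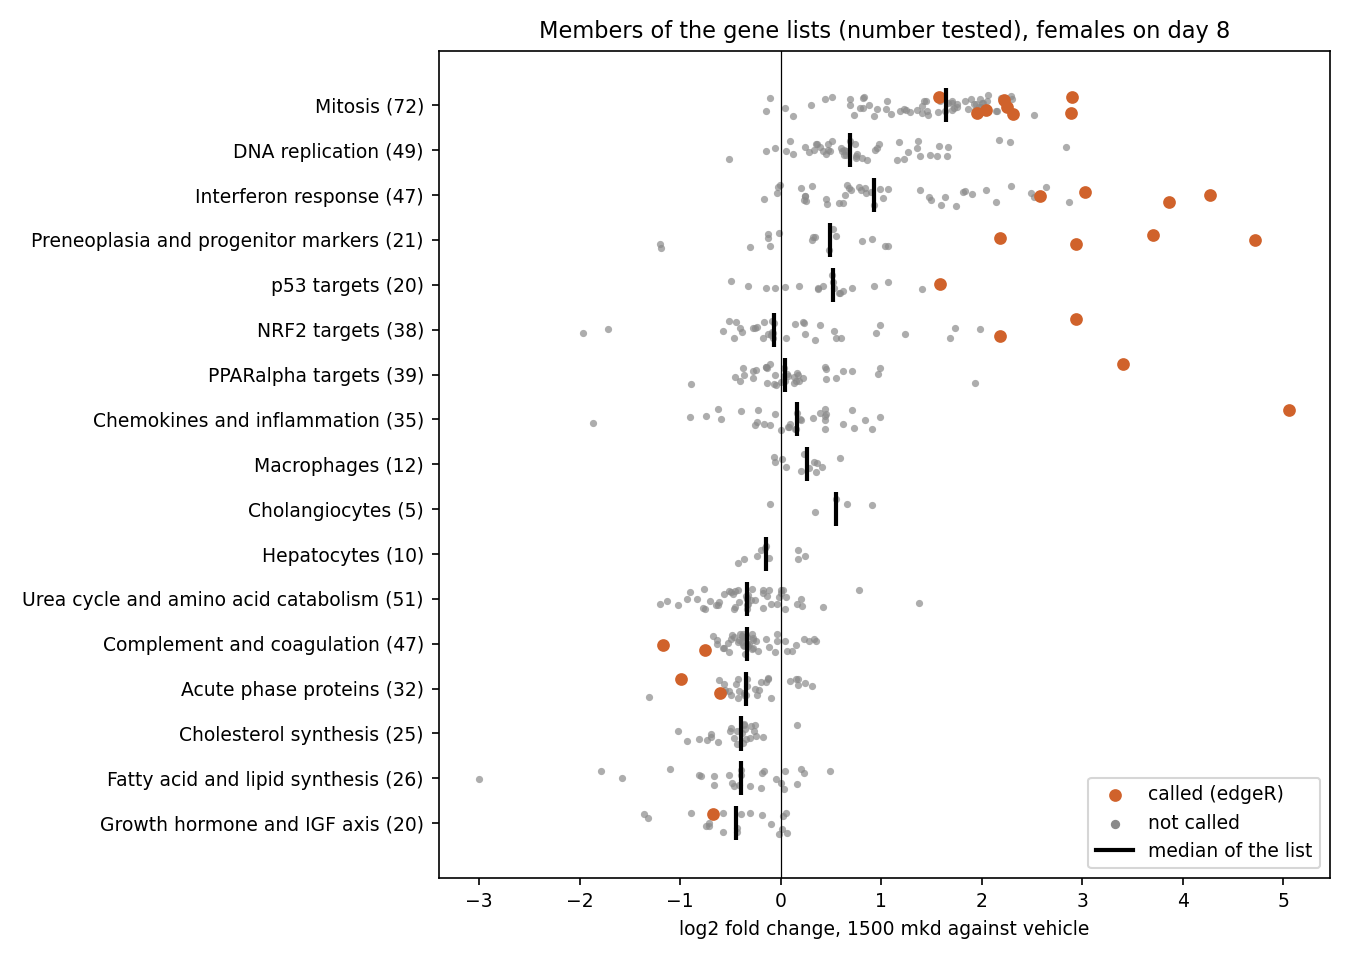
Log2 fold change of each tested member of 17 gene lists at 1500 mkd against vehicle, with called genes in orange, other genes in grey and a black line at the median of each list. The mitosis list stands to the right with a median of 1.65, and the interferon list reaches from below 0 to 4.28. Medians of the complement and coagulation, acute-phase, lipid and amino acid lists sit to the left of 0 by less than 0.5.

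The highest dose was compared with the dose below it, 1000 mkd, to see whether the response went on growing. Between 1500 and 1000 mkd 0 genes were called by edgeR (0%) and 0 by DESeq2, and 335 had an unadjusted p under 0.05 (2.91%), with a lowest adjusted p of 1.00. The mitosis list was at 0.25 ± 0.38 log2 CPM (SD, n = 5) in the vehicle rats, 0.85 ± 0.70 at 300 mkd, 0.95 ± 0.67 at 500, 1.71 ± 0.55 at 750, 1.95 ± 0.69 at 1000 and 1.62 ± 0.56 at 1500 mkd. From 750 mkd upwards the rats at neighbouring doses overlapped throughout. The number of genes called against the same vehicle rats was 1, 2, 2 and 158 at 300, 500, 750 and 1000 mkd, against 81 at 1500 mkd. Between 750 and 1000 mkd the median log2 fold change rose from 1.65 to 2.09 in the mitosis list. It rose from 0.68 to 0.87 in the DNA replication list and fell from 0.57 to 0.26 in the interferon list. The median log2 fold change of the 60 genes called higher at 1500 mkd was 0.57, 0.61, 1.45 and 1.21 at 300, 500, 750 and 1000 mkd. For the 21 genes called lower it was -0.39, -0.53, -0.73 and -0.72. Both sets were selected at 1500 mkd, and a difference between 750 and 1000 mkd was not tested.

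The interferon list had no such course. Its level was 4.40 ± 0.40 log2 CPM in the vehicle rats, 4.62 ± 0.44 at 300 mkd, 4.28 ± 0.33 at 500, 5.06 ± 0.73 at 750, 4.65 ± 0.39 at 1000 and 5.35 ± 1.04 at 1500 mkd (SD, n = 5 each). Rsad2 had a mean of 5.59 CPM in the vehicle rats, 43.5 CPM at 750 mkd, 18.1 CPM at 1000 mkd and 108 CPM at 1500 mkd. At 1500 mkd the SD between rats was larger than the distance of the list mean from that of the vehicle rats. Abcb1b was at a mean of 3.63 CPM in the vehicle rats and 27.7, 34.1, 44.8, 58.4 and 47.5 CPM at 300, 500, 750, 1000 and 1500 mkd, and against the shared vehicle rats its adjusted p was 0.0306, 0.00720, 0.00121 and 0.000234 at the 4 lower doses.

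**Figure D4:**
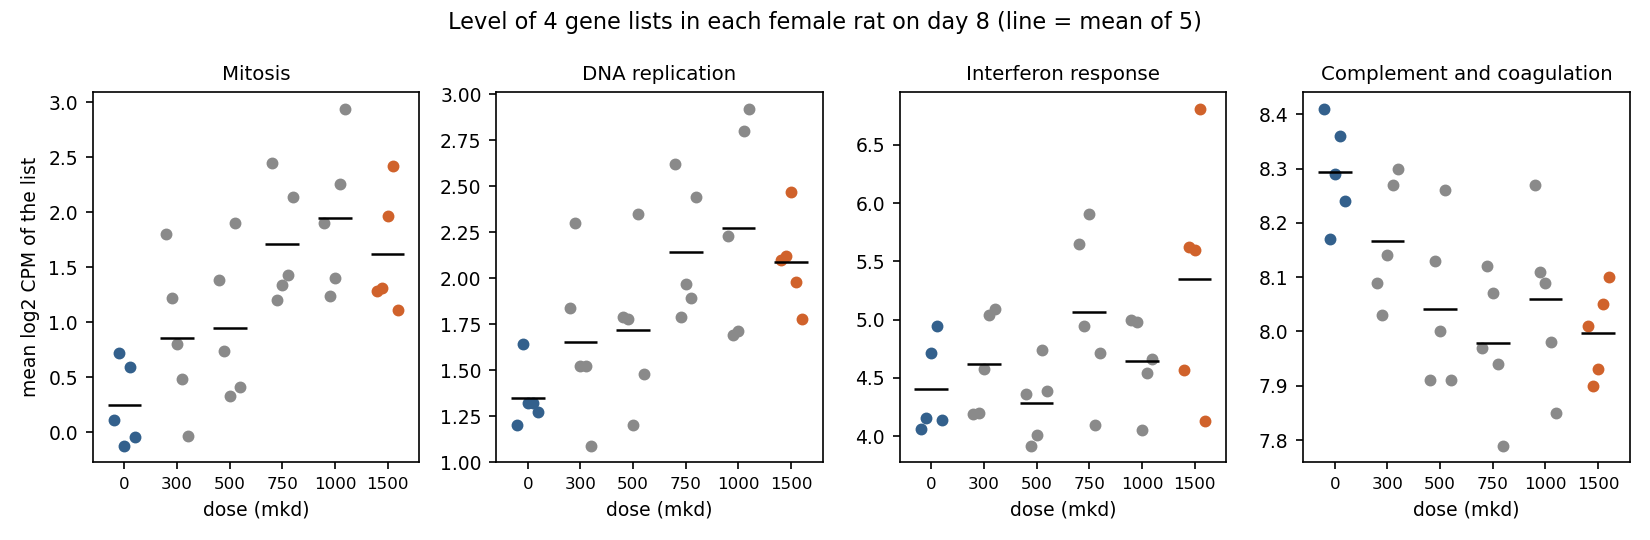
Level of 4 gene lists in each of the 30 female rats on day 8, as the mean log2 CPM of the list, by dose in mkd (blue vehicle, grey lower doses, orange 1500 mkd), with a line at the mean of 5 rats. The means of the mitosis and DNA replication lists are above the vehicle mean at 300 and 500 mkd, with overlapping rats, and higher still from 750 mkd on. Neither list takes a further step at 1500 mkd, and the interferon list at 1500 mkd spans from 4.13 to 6.81.

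Females treated for 28 days and killed on day 29 have their own vehicle rats, and the 81 genes were looked up there. All 81 had the same sign of log2 fold change, as did 71.3% of all 11657 genes tested in both. On day 29, 47 of the 60 genes that rose on day 8 were also called higher (10.1% of all genes were) and 6 of the 21 that fell were also called lower (3.64% of all genes were). The medians on day 29 were 1.56 for the 60 genes and -0.47 for the 21. Both sets were selected on day 8, so smaller medians on day 29 do not by themselves show a weaker response. Mitosis genes had a median of 2.54 on day 29 and 1.65 on day 8, interferon genes 0.61 and 0.93.

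As a test of the difference between the days, 1 gene was called (0.00858%) by edgeR and 1 by DESeq2, and 932 had an unadjusted p under 0.05 (8%). Among the 81 genes the lowest adjusted p of the difference was 0.486. Ccl12 had a log2 fold change of 5.06 on day 8 and 0.35 on day 29, and Il1r1 of -1.38 and -0.32. The called gene was Pkp3, a desmosome protein of epithelia, whose response was 1.25 ± 0.22 higher on day 8 on the log2 scale (adjusted p = 0.00877). It was at 19.3 ± 2.40 CPM in the treated and 18.2 ± 3.76 CPM in the vehicle rats of day 8 (SD, n = 5) and fell on day 29, with 11.6 ± 3.16 and 25.9 ± 3.64 CPM. The call for Pkp3 was lost without treated rat 5 of day 8, without treated rat 2 of day 29 and in a fit of only the 4 groups compared.

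Males at 1500 mkd on day 8 again had their own vehicle rats. Of the 81 genes, 74 had the same sign in males, against 64.6% of all 11631 genes tested, and 43 of them reached an unadjusted p under 0.05 in that direction. In males 3 genes were called higher (0.0258%) and 1 lower (0.0086%), and 2 of the 81 were among those higher, Abcb1b (log2 fold change 2.89, adjusted p = 0.0246) and Acot1 (4.94, adjusted p = 0.00075). The median was 0.72 for the 60 genes that rose in females and -0.29 for the 21 that fell. The 81 genes were selected in females, so smaller medians in males do not by themselves show a weaker response. Mitosis genes had a median of 1.47 in males, close to the 1.65 of females, and interferon genes of 0.20, against 0.93.

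In the test of a difference between the sexes, 0 genes (0%) were called by edgeR and 0 by DESeq2, and 533 had an unadjusted p of the difference under 0.05 (4.58%). Of the 81, H19 had the lowest adjusted p of the difference, 0.395, with a log2 fold change of 4.72 in females and -0.31 in males. Phgdh was at 2.98 in females and 0.06 in males, and Gbp4 at 2.59 and 0.10. With 5 rats per group, differences of this size did not pass.

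**Figure D5:**
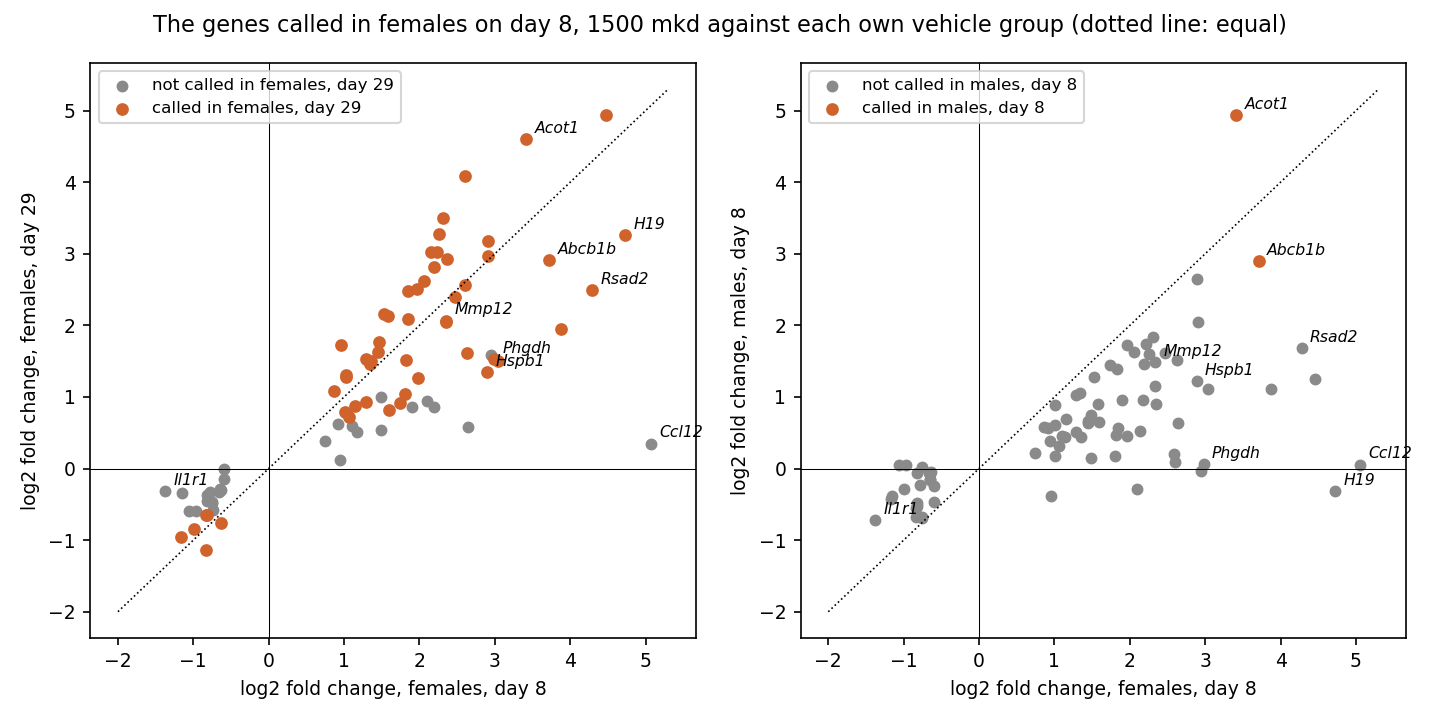
Log2 fold changes of the 81 genes at 1500 mkd in females on day 8 (horizontal) against females on day 29 (left) and males on day 8 (right), each against its own 5 vehicle rats. Orange points are genes called in the other rats, 53 on day 29 and 2 in males, and the dotted line marks equal changes. Most genes lie below it in males, and all were selected in females on day 8.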

How the data were processed

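The authors isolated total RNA from the left liver lobe, prepared stranded mRNA libraries, trimmed the reads with Trimmomatic, aligned them to the Rn6 genome with Bowtie2 and counted them on gene models with HTSeq (versions not given in the sources used here), and they deposited raw counts for 17337 genes, with no filter or normalization. The strand setting of HTSeq is not given in the sources used here, so overlapping and antisense genes cannot be told apart. The HTSeq summary lines (36.7 to 50.1% of the counts in vehicle rats, 37.3 to 45.2% in treated rats) were left out, and 0 per-sample columns were left out. No 2 rats had identical counts (highest correlation 0.9885).

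All 30 females of day 8 (6 groups) entered a single fit in edgeR 4.0.16 (R 4.3.3, limma 3.58.1), with TMM normalization, the edgeR filter on low counts and the quasi-likelihood F-test. The contrasts were 1500 mkd against vehicle and against 1000 mkd, and the difference of the 1500 mkd response between days and between sexes was an interaction in fits of 60 rats. Each p-value sets a difference against the spread between rats within groups, estimated over all groups of its fit. DESeq2 1.42.0, other normalization, filters, samples in the fit, the replicate number as a block and leaving out each rat were alternatives. The code was tested on simulated data with 200 changed genes.

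List levels are means of log2 CPM with a prior count of 2. Gene symbols matched the reference table for 14821 genes, 16946 with synonyms. The genes compared and the gene lists were chosen with earlier results of these data known. Genes were named from a set of 123: the 15 largest changes each way among called genes with separate groups and a mean of at least 1 CPM, every called gene of a list, the 2 members of each list with the smallest p, genes the study singles out, and up to 5 genes each way that were called in the other comparisons. Names outside that set are marked as chosen after their values were seen.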

Additional observations from a re-analysis of the deposited data

Results flagged for a closer look

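In groups of 5 rats, the gap between the highest or lowest rat and the next, divided by the range, was set against Dixon's critical value of 0.71, which chance exceeds in about 1 in 20 groups, and 200 groups were examined. At that rate, about as many flags would arise by chance as are listed here. The groups share the same rats and are not independent. Treated rat 4 stood above the other treated rats for Ccnb1 (13.2 CPM, next 4.87), Isg15 (669 CPM, next 157), Cmpk2 (135 CPM, next 38.8), Phf11 (152 CPM, next 39.8) and Cdkn3 (2.87 CPM, next 1.19), and treated rat 3 for Akr7a3 (318 CPM, next 94.9). Vehicle rats that stood above the other vehicle rats were rat 2 for Nos1ap (8.64 CPM, next 5.87) and for the level of the DNA replication list (1.64 log2 CPM, next 1.32), rat 3 for Gpt2 (120 CPM, next 92.5) and rat 4 for Gbp4 (2.89 CPM, next 1.44). The response of Pkp3 to 1500 mkd was 1.25 higher on day 8 than on day 29 on the log2 scale by the test of the difference in edgeR (adjusted p = 0.00877).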

How the results depend on the processing

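The number of genes called at 1500 mkd depended on the tool and on single rats. DESeq2 called 338 genes (257 higher, 81 lower), a fit of only the 2 groups compared 11 (9 higher, 2 lower), and leaving out each rat in turn gave 1 to 426 (1 to 308 higher, 0 to 118 lower). With at least 10 counts required in every rat, which leaves fewer genes tested, 35 genes were called higher. DESeq2 size factors and no filter on low counts gave 80 and 81 genes. Between days, 0 genes were called in a fit of only the 4 groups compared and 0 to 3 when each rat was left out, and between sexes 0 to 1 (1 without treated female 1). For 1500 against 1000 mkd it was 0 under every alternative tried. The cause of these differences was not tested. Vehicle and treated rats share replicate numbers, and the correlation of their deviations from the group means was 0.34, 0.20, -0.02, 0.20 and -0.02 for numbers 1 to 5, so that 2 of the 5 were near 0 and the numbers were not taken to pair the rats, although pairing of some is not settled by these values. With the replicate number as a block 3 genes were called (3 higher, 0 lower), and 3 of 5 treated rats correlated best with their own number.

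Of the 51 called genes named in the report, DESeq2 kept 51 and the DESeq2 size factors 50, the filter of 10 counts 34, the fit of only the groups compared 3 (Abcb1b, Mmp12 and Cyp26b1) and the block 3 (Abcb1b, Hspb1 and Cyp26b1). The log2 fold change kept its sign in all 51 under the 16 alternatives. The median of the mitosis list ran from 1.42 to 1.84 and its calls from 0 to 47, that of the interferon list from 0.62 to 1.11 with 0 to 23 calls, that of DNA replication from 0.62 to 0.82, that of the acute-phase proteins from -0.38 to -0.26 and that of complement and coagulation from -0.35 to -0.27. Depth limits the genes near 0 in the vehicle rats, such as Ccl12 and Adgrg2 with at most 3 reads, whose size of change rests on few reads.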
